A study of Mus musculus with 15 samples.

Results

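Gcg, Pyy, Nts and Insl5 encode hormones of intestinal L cells, and Gip encodes the hormone of intestinal K cells. These 5 genes were taken by symbol from the 37620 gene identifiers counted in each library, and all 5 were present in the 15 columns of data. The libraries were made from ileum, the distal small intestine, of adult mice given 10 mg tamoxifen by gavage repeatedly over 5 days. Mutant animals were labelled Rfx6f/f Vilin-CreERT2. Both alleles of Rfx6 were flanked by loxP sites, and a tamoxifen-activated Cre was driven by the Villin promoter, an epithelial promoter of the gut that is not specific to endocrine cells. Control animals had floxed Rfx6 and no Cre in their label. Ileum taken 8 days after tamoxifen gave 3 control libraries, all Rfx6f/f, and 4 libraries labelled mutant. Ileum taken 3 months after tamoxifen gave 4 control libraries, of which replicates 1 and 4 were Rfx6f/f and replicates 2 and 3 were Rfx6f/+, and 4 libraries labelled mutant. Ages were not used here.

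Enteroendocrine cells are rare epithelial cells that sense nutrients and release peptide hormones into the tissue and the blood. L cells are most frequent in the distal gut. They cut proglucagon, the product of Gcg, into GLP-1, which raises insulin release after a meal, and GLP-2, which supports growth of the mucosa. The same cells make peptide YY, a hormone that slows the gut and reduces appetite, neurotensin, which acts on motility and fat absorption, and, mainly in the colon, insulin-like peptide 5. K cells lie mainly in the proximal gut and release GIP, the other hormone that raises insulin release after a meal. Rfx6 encodes a winged-helix transcription factor of endocrine cells in gut and pancreas that binds X-box sequences.

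The 200 bases before the RefSeq start site are shown for the 4 members with the most counts, since these members had lower means together in the libraries labelled mutant. The sequences are from GRCm38.p6, each written 5′ to 3′ on the strand of its gene. They lie at chr2:62483654-62483853 on the minus strand for Gcg, at chr10:102490419-102490618 on the minus strand for Nts, at chr11:96024345-96024544 on the plus strand for Gip and at chr11:102107833-102108032 on the minus strand for Pyy. Capitals mark matches, on either strand, to an RFX half-site written GTTNCC, to the homeodomain core TAATTA, to the E-box CANNTG and to the TATA box TATAAA.
Gcg: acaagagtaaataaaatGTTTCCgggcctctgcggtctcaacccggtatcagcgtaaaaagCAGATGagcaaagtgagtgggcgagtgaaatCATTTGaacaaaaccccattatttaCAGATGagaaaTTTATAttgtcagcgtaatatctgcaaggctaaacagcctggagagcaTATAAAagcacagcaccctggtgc
Nts: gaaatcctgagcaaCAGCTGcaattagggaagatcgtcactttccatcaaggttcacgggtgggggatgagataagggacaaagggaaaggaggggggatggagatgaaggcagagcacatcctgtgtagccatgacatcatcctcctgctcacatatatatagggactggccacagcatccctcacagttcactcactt
Gip: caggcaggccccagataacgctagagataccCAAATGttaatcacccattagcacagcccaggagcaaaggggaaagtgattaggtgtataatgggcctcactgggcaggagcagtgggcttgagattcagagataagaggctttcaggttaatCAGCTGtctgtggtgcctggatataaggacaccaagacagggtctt
Pyy: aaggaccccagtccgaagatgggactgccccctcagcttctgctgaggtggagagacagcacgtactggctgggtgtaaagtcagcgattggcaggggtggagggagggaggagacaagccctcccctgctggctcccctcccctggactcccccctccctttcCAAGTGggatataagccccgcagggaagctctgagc
RefSeq promoters were matched for 5 of the 5 members. Each of the 4 sequences shown holds at least 1 E-box, the motif class of basic helix-loop-helix factors such as Neurog3 and Neurod1. An E-box stood in the 250 bases upstream of 69.3% of the 27025 genes with a RefSeq promoter. The RFX half-site GTTNCC, found in 42.8% of these genes, was matched once among the 4 shown, 183 bases before the start of Gcg, and once, 31 bases before 1 of its starts, for Insl5. Its form GTTGCC, which every GTTNCC search includes and which 11.8% of genes held, was not matched before any of the 5 members, nor was TAATTA, which 5.65% held. TATAAA, held by 14.3% of genes, was matched 24 and 72 bases before the start of Gcg and also upstream of Insl5, but not in the other 3 sequences. These matches describe letters in a short window and were not tested for binding.

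Library totals were 30.5 to 54.5 (8 days) and 26.1 to 36.3 (3 months) in units of 1000000 counts. In counts per 1000000 (CPM), scaled by TMM, 3 counts of a gene came to 0.0552 to 0.0975 in the earlier and 0.0800 to 0.117 in the later cohort, and these floors cover counting error only. Rfx6, the targeted gene, checks the labels. Its counts were 50, 50 and 84 in the 8-day controls against 80, 105, 63 and 44 in the libraries labelled mutant, and 51, 52, 38 and 43 against 106, 72, 89 and 65 at 3 months. Rfx6 counts therefore did not fall with the label (log2 fold change 0.19, SE 0.18, edgeR adjusted p 0.867 at 8 days and 0.72, SE 0.17, adjusted p 0.0347 at 3 months, a call kept in 2 of the 8 fits that left out 1 library). Reads over the floxed exons were not analysed here, and the groups are named by their labels throughout. Libraries also differed in regional genes at 8 days. Car1, a carbonic anhydrase abundant in the colon, had 8757 counts in control replicate 3 and 13347 in mutant replicate 4, whereas the other 5 had 0 to 37. Gata4, a factor of the proximal small intestine, had 32 and 39 counts in mutant replicates 2 and 4, whereas the other 5 had 376 to 1125. Onecut2, another proximal factor, had 36 and 19 counts in those libraries and 491 to 1651 in the other 5. With Slc40a1 and Cybrd1 added, the proximal markers summed to 125.0 CPM in mutant replicate 2 and 198.9 CPM in mutant replicate 4. The 8-day controls had 150.7 to 251.6 CPM. In replicate 4 the low values thus held for Gata4 and Onecut2 and not for the proximal sum. The 8-day values of Gcg, Pyy and Nts and the 8-day calls of other genes are also given without 1 or both of these pairs.

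In control ileum, per kilobase of annotated exon, the order of RNA level at 8 days was Nts, Pyy, Gcg, Gip and Insl5. Nts stood at 39.5 ± 5.21 CPM per kilobase (SD, n = 3), Pyy at 33.5 ± 4.67 and Gcg at 27.3 ± 2.65. These 3 L-cell genes thus lay within a narrow range, and the mean ± SD ranges of neighbours overlapped for Nts with Pyy and for Pyy with Gcg, although each of the 3 libraries had the same order. Gip stood lower, at 10.8 ± 4.08, and Insl5 at 0.612 ± 0.245. In the 3-month controls (SD, n = 4) Nts stood at 51.9 ± 13.0 CPM per kilobase, Gcg at 35.5 ± 8.91, Pyy at 33.5 ± 5.08, Gip at 4.17 ± 1.33 and Insl5 at 0.339 ± 0.301. Nts was again first in 4 of 4 libraries, with mean ± SD ranges of Nts and Gcg that overlapped. Gcg and Pyy did not differ beyond their spread there, with Gcg the higher in 2 of 4 libraries. Insl5 was at 3 to 19 counts in the 7 controls, the lowest member in each of them.

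**Figure D1:**
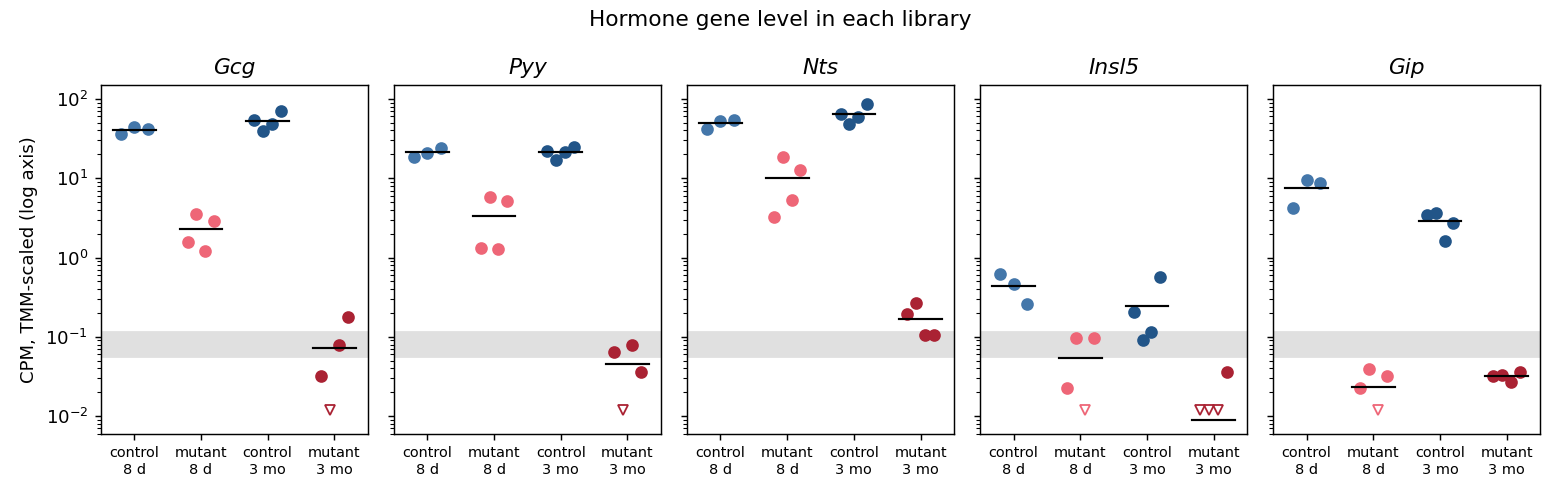
Level of each hormone gene, in TMM-scaled CPM on a log axis, with 1 point per library and a bar at the group mean (n = 3, 4, 4 and 4). The grey band is the level of 3 counts, 0.0552 to 0.117 CPM, and open triangles are libraries with 0 counts, drawn at an arbitrary low position. For every gene the libraries labelled mutant lie below all controls of their cohort, and at 3 months the mutant points of Gcg, Pyy, Nts, Insl5 and Gip lie near or within the band or below it.

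In the 8-day cohort the K-cell gene Gip was almost absent from the libraries labelled mutant. Gip (ENSMUSG00000014351) had 132, 349 and 470 counts in the controls, or 4.25, 9.46 and 8.65 CPM, while the libraries labelled mutant had 1, 2, 0 and 1. The groups did not overlap, and the lowest control was 108.7-fold above the highest library labelled mutant in CPM. Of all genes tested, 7.63% had groups that did not overlap at 8 days (3.8% lower, 3.84% higher) and 19.2% at 3 months (9.53% lower, 9.7% higher). At each time 5 of the 5 members lay below all controls, though Insl5 at 3 months was outside the genes tested. Over pooled counts scaled to depth, Gip was 323.5-fold lower (95% exact interval 126 to 1190, counting error only). The edgeR quasi-likelihood test put the log2 fold change at -8.11 with an SE of 0.48 (Benjamini-Hochberg adjusted p 0.00100), a value whose size depends on the prior count because the mutant counts are so low. Across all genes, 0.0915% were called in this comparison, 0.0572% lower and 0.0343% higher, and 2 of the 5 members, Gip and Gcg, were among those called lower. Leaving out 1 library moved the count over all genes from 16 to between 8 and 200, with 8, 8 and 10 without control replicates 1, 2 and 3, and 200, of which 180 were higher, without mutant replicate 1. DESeq2 called 181. Gip and Gcg were the members called in each of these 7 fits. In these bulk samples fewer endocrine cells and less hormone RNA per cell cannot be told apart.

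Among the L-cell genes, Gcg fell at 8 days to a residual level of a few percent in each library labelled mutant. Gcg (ENSMUSG00000000394) measured 36.3, 43.8 and 42.1 CPM in controls and 1.55, 3.50, 1.22 and 2.89 CPM in the libraries labelled mutant. The latter are 3.81, 8.58, 3.00 and 7.10% of the control mean, from 49 to 179 counts each, so the residue was well above the 3-count floor. Every control was at least 10.4-fold above every library labelled mutant. The edgeR log2 fold change was -4.15 with an SE of 0.32 (adjusted p 0.00342). With the 2 Car1-rich libraries left out, the log2 fold change was -4.24 and the edgeR adjusted p 0.0748, so the call was lost while the size was kept.

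Pyy and Nts left a larger residue than Gcg in each of the 4 libraries labelled mutant at 8 days, and it varied from library to library. Pyy (ENSMUSG00000017311) stood at 18.3, 20.8 and 24.2 CPM in the controls and at 1.30, 5.78, 1.30 and 5.14 CPM in the libraries labelled mutant, which is 6.18, 27.4, 6.15 and 24.3% of the control mean. Nts (ENSMUSG00000019890) stood at 41.8, 52.3 and 53.7 CPM in the controls and at 3.22, 18.7, 5.32 and 12.9 CPM in the libraries labelled mutant, or 6.53, 37.9, 10.8 and 26.1%. For both genes mutant replicates 2 and 4 were the high ones, and no library labelled mutant reached the lowest control. The log2 fold changes, -2.65 (SE 0.51) for Pyy and -2.30 (SE 0.49) for Nts, did not pass the edgeR test (adjusted p 0.201 and 0.315). Both passed with DESeq2 (adjusted p 0.0105 and 0.0375) and in the joint edgeR fit of all 15 libraries (0.0203 and 0.0476). Replicates 2 and 4 are the Gata4-poor libraries. As they also hold the most Pyy and Nts of the 4, leaving them out enlarges the difference by construction, to -4.02 for Pyy and -3.53 for Nts, which is given as a description chosen after the values had been seen. Without the 2 Car1-rich libraries the values were -2.79 for Pyy and -2.37 for Nts (edgeR adjusted p 0.654 and 0.854).

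Insl5 (ENSMUSG00000066090), a relaxin-family peptide, was scarce at 8 days. Its counts were 19, 17 and 14 in controls and 1, 5, 0 and 3 in libraries labelled mutant. The groups did not overlap, replicates 2 and 4 were again the highest of the libraries labelled mutant, and pooled counts were 7.56-fold lower (95% exact interval 3.68 to 17.5). The log2 fold change of -2.92 (SE 0.65) did not pass the edgeR test (adjusted p 0.335). Without replicates 2 and 4 it was -4.87 (edgeR adjusted p 0.330), a move that leaving out the highest of the 4 fixes in direction.

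**Figure D2:**
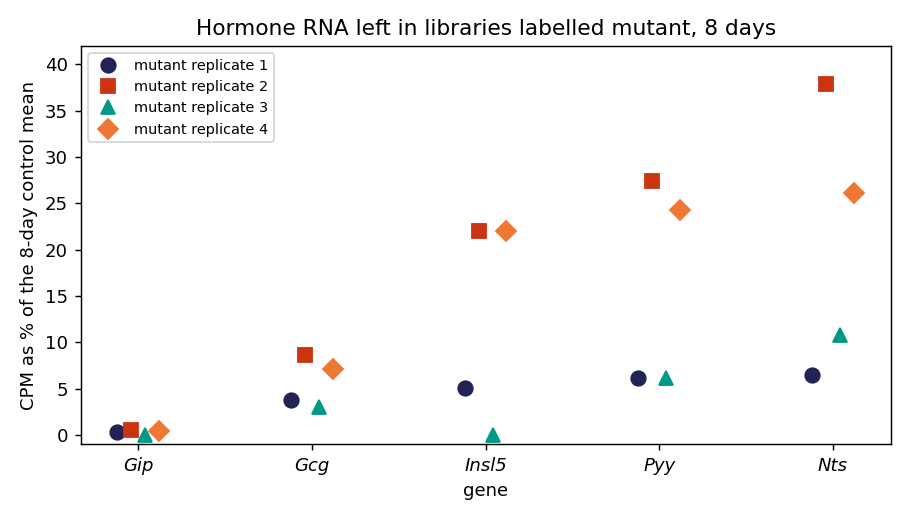
RNA left at 8 days in the 4 libraries labelled mutant, as percent of the 8-day control mean in CPM (y axis), for each gene (x axis), with 1 symbol per library. Mutant replicates 2 and 4 are the 2 highest for Gcg, Insl5, Pyy and Nts, at 24.3% or more for Pyy and Nts, while Gip stays near 0 in all 4.

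Taking ratios inside each library removes differences in depth and shows whether the L-cell genes were lower by one factor. In the controls Nts counts per Gcg count were nearly constant, at 1.15, 1.19 and 1.27 at 8 days and at 1.18, 1.24, 1.23 and 1.23 at 3 months. In the 8-day libraries labelled mutant the ratio was 2.07, 5.35, 4.35 and 4.45, higher than in any of the 7 controls. Pyy counts per Gcg count moved likewise, from 0.505, 0.475 and 0.574 in the 8-day controls to 0.841, 1.65, 1.06 and 1.78. The log2 differences of the ratios were 1.65 for Nts to Gcg and 1.30 for Pyy to Gcg. Each reached an exact permutation p of 0.0571 (two-sided), the smallest that 3 against 4 libraries allow, with 0.0857 after adjustment over the 3 ratios. The ratio of Nts to Pyy stood at 2.28, 2.51 and 2.22 in the controls and at 2.47, 3.23, 4.10 and 2.51 in the libraries labelled mutant, a log2 difference of 0.36 (exact permutation p 0.171, adjusted 0.171). Both ratios to Gcg were thus above every control in each of the 4 libraries labelled mutant, in a design too small to pass 0.05.

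**Figure D3:**
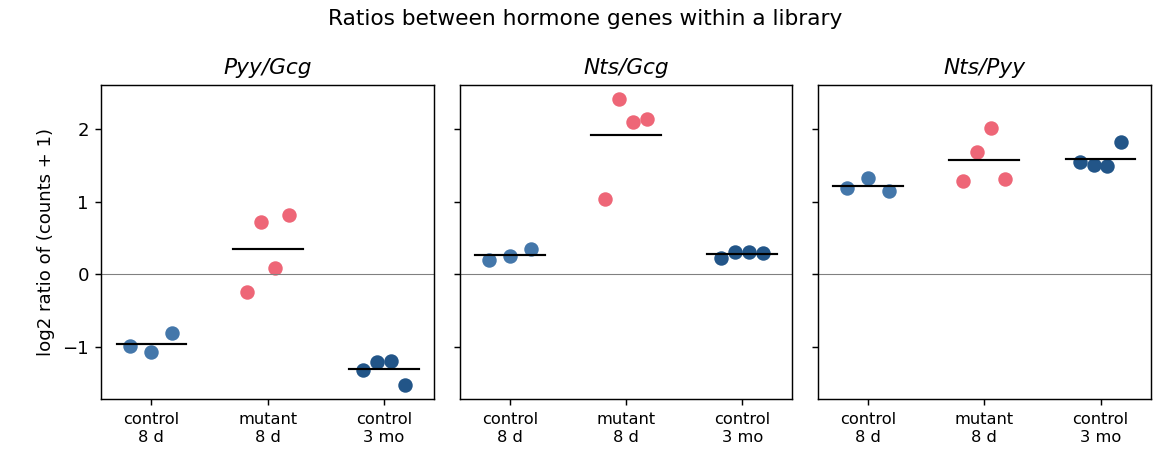
Ratios between pairs of L-cell genes within each library, as log2 of (counts + 1) over (counts + 1), with 1 point per library and a bar at the mean (n = 3, 4 and 4). Nts to Gcg and Pyy to Gcg lie above all 7 controls in the 4 libraries labelled mutant at 8 days. The 3-month libraries labelled mutant are left out because they hold 0 to 8 counts per gene.

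**Figure D4:**
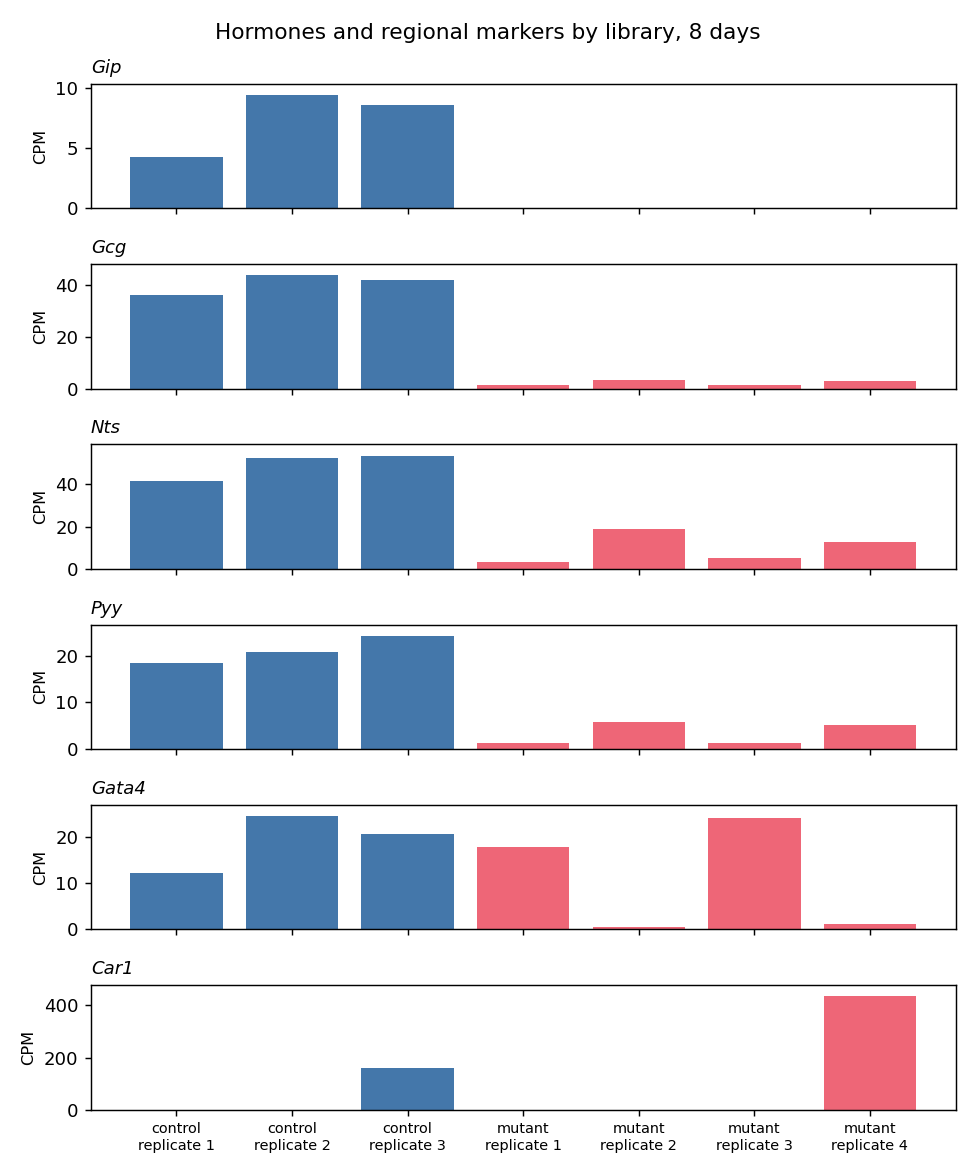
CPM of 4 hormone genes and of the regional genes Gata4 and Car1 in each of the 7 libraries of 8 days (bars from 0, each panel with its own scale). Mutant replicates 2 and 4, with the least Gata4, have the most Nts, Pyy and Gcg among the libraries labelled mutant, and Car1 stands out in control replicate 3 and mutant replicate 4.

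Sums of other markers at 8 days were as follows. The summed level of 9 pancreatic markers, which matter because Gcg and Pyy are also expressed in pancreatic islets, ran from 0.957 to 108.6 CPM in the controls and from 0.469 to 198.0 CPM in the libraries labelled mutant, and Ins1 and Ins2 had 0 counts in all 7. Mutant replicates 2 and 4 had the lowest pancreatic sums too, 0.469 and 0.520 CPM, against 1.26 and 198.0 in replicates 1 and 3. The 5 enterochromaffin markers, genes of serotonin cells, summed to 86.2 to 106.8 CPM in the controls and 112.1 to 159.0 in the mutant group, without overlap, and 0 of the 5 were called by edgeR at 8 days (3 with an unadjusted p under 0.05, and 2 called by DESeq2). Its part in the 8-day results was not tested. The 4 distal markers summed to 2446 to 3220 and 2060 to 3194 CPM. Markers of enteric neurons, which can express neuropeptides, summed to 62.5 to 86.5 and 60.1 to 76.4 CPM over 9 genes, all detected in every library. The 5 epithelial markers summed to 11154 to 12280 CPM in the controls and 10005 to 10958 in the libraries labelled mutant. The 4 colon markers summed to 36.7 to 216.2 and 38.8 to 520.0 CPM, with Hoxb13 at 0 to 2 counts. The 4 proximal markers summed to 150.7 to 251.6 and 125.0 to 201.8 CPM. The part of regional content in the hormone values was not tested beyond leaving out these libraries.

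In the 3-month cohort the L-cell genes were close to undetectable in the libraries labelled mutant. Gcg stood at 54.5, 38.8, 48.6 and 70.6 CPM in the controls and had 1, 0, 3 and 5 counts in the libraries labelled mutant. Pyy stood at 22.0, 16.8, 21.3 and 24.5 CPM against 2, 0, 3 and 1 counts. Nts stood at 64.0, 48.1, 60.0 and 86.9 CPM against 6, 8, 4 and 3 counts, which made it the member with the most reads left in 3 of the 4 libraries labelled mutant, with Gcg ahead in replicate 4. No library labelled mutant came within 182-fold of a control for any of these 3 genes. Over pooled counts Gcg was 744.0-fold lower (95% exact interval 392 to 1628), Pyy 444.8-fold (204 to 1213) and Nts 388.7-fold (254 to 628). The edgeR log2 fold changes were -9.47 (SE 0.39, adjusted p 9.7e-06) for Gcg, -8.69 (SE 0.31, adjusted p 4.0e-06) for Pyy and -8.58 (SE 0.29, adjusted p 4.0e-06) for Nts.

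Gip at 3 months had 100, 118, 42 and 77 counts in the controls and 1 count in each of the 4 libraries labelled mutant. It was 92.7-fold lower over pooled counts (95% exact interval 35.9 to 342), and edgeR put its log2 fold change at -6.33 with an SE of 0.40 (adjusted p 0.000140). Insl5 had 6, 3, 3 and 16 counts against 0, 0, 0 and 1. The groups did not overlap, though controls of 3 counts are themselves at the floor. Insl5 was below the filter on low counts. It passed in the edgeR fits that kept it, with no filter (-4.37, SE 1.02, adjusted p 0.0373) and in the joint fit of all 15 libraries (-4.44, SE 1.09, adjusted p 0.0190). DESeq2 gave it no adjusted p (unadjusted p 0.000492), so it did not count as called there. Its mean difference of -0.236 CPM had an exact permutation p of 0.0286 (two-sided, 4 against 4), the smallest possible, and was -0.130 CPM without control replicate 4. The pooled counts were 30.8-fold lower with an interval of 5.09 to 1260. Across all genes, 9.28% were called at 3 months, 4.32% lower and 4.96% higher, and 4 of the 4 members tested were called lower. All 4 were also called with the Rfx6f/f controls alone and with each library left out in turn. The count over all genes, 1586, was far less stable. It was 400, 412 and 391 without control replicates 1, 2 and 3, 856 and 768 without mutant replicates 1 and 3, 36 with the Rfx6f/f controls alone and 2929 with DESeq2.

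Control replicate 4, with the highest Gcg, Pyy, Nts and Insl5 of this cohort, also had the largest pancreatic sum, 1310.8 CPM against 44.7 to 215.0 in the other controls. Mutant replicate 4, which had the most Gcg and the only Insl5 count among the libraries labelled mutant, had a sum of 388.3 CPM against 24.4 to 149.2. Of the islet markers, Ins1 had 2 counts and Ins2 5 in control replicate 4, and 3 and 5 in mutant replicate 4. With both of these libraries left out, the same 4 members were called. The part of islet RNA in the counts that remained was not tested.

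The change with the label was larger at 3 months than at 8 days for Gcg, Pyy and Nts. In a fit of all 15 libraries, 0.785% of all genes differed between the times, 0.406% with a more negative and 0.379% with a more positive effect at 3 months, and 3 of the 5 members had a more negative one. The count over all genes, 141, ran from 10 without 8-day control replicate 3 to 749 without 8-day mutant replicate 1, and leaving out any library but 3-month control replicate 4 (131) moved it by over 1.5 times. It was 5 with the Rfx6f/f controls only and 1019 with DESeq2, while 3 members were called with each library left out. The interaction was -5.34 (SE 0.64, edgeR adjusted p 0.00383) for Gcg, -6.08 (SE 0.87, adjusted p 0.0101) for Pyy and -6.30 (SE 0.77, adjusted p 0.00409) for Nts on the log2 scale. Gip had a difference of 1.72 (SE 1.04, adjusted p 0.441) and Insl5 of -1.52 (SE 1.42, adjusted p 0.648). For Gip the libraries labelled mutant sat at 0 to 2 counts at both times, under the 3-count floor. With limma-voom, 1 member passed, as Pyy and Nts each had an adjusted p of 0.0574. With the Rfx6f/f controls only, edgeR called Gcg and Nts, and Pyy did not pass (-6.19, adjusted p 0.0666). Time after tamoxifen and cohort cannot be told apart, since each cohort has its own table and controls.

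Between the controls of the cohorts, the L-cell genes did not pass and Gip was lower at 3 months. Gip means were 7.45 ± 2.80 CPM (SD, n = 3) at 8 days and 2.86 ± 0.913 CPM (SD, n = 4) at 3 months. Each 8-day control, at 4.25 CPM or more, was above each 3-month control, at 3.62 CPM or less. These CPM were scaled within each cohort, and the share of all genes without overlap between cohorts was not computed. In the fit of all 15 libraries the log2 difference of Gip was -1.43 (SE 0.28, edgeR adjusted p 0.00112). As 45.1% of all genes were called between these cohorts, 22.1% lower and 23% higher at 3 months, 1 of 5 members called lower is not a result about the hormones. With the Rfx6f/f controls only, 5197 genes were called in place of 8093. Gcg differed by 0.33 (SE 0.29), Pyy by -0.05 (SE 0.40), Nts by 0.34 (SE 0.41) and Insl5 by -0.86 (SE 0.60), with edgeR adjusted p from 0.258 to 0.930. The sign for Pyy turned with the controls used. With 1 library left out, Gcg ran from 0.15 to 0.44, Nts from 0.16 to 0.45 and Insl5 from -1.17 to -0.58. Beside Gip, the proximal genes Gata4 (-2.91, adjusted p 0.0175) and Onecut2 (-2.16, adjusted p 0.0704) had lower means in the 3-month controls, and their part in the Gip difference was not tested.

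Control genotype was compared within the 3-month cohort, in a fit whose spread was shared with the libraries labelled mutant. Gcg stood at 38.8 and 48.6 CPM in the Rfx6f/+ controls and at 54.5 and 70.6 CPM in the Rfx6f/f controls, and Nts at 48.1 and 60.0 against 64.0 and 86.9 CPM. The log2 differences, Rfx6f/+ minus Rfx6f/f, were -0.52 (SE 0.26) for Gcg, -0.48 (SE 0.20) for Nts, -0.29 (SE 0.24) for Pyy and -0.23 (SE 0.34) for Gip. Leaving out 1 library gave values between -0.68 and -0.30 for Gcg and between -0.67 and -0.23 for Nts, the smallest in size without control replicate 4. The pancreatic marker sum was 44.7 and 82.4 CPM in the Rfx6f/+ and 215.0 and 1310.8 CPM in the Rfx6f/f controls, and its part in these differences was not tested. Of these 4, 0 passed the edgeR test (adjusted p 0.702 to 0.913), 1, Nts, had an unadjusted p under 0.05, and 0 passed with DESeq2 or limma-voom. Of all genes 0% were called, with 1220 at an unadjusted p under 0.05, 0 by limma-voom and 41 by DESeq2. With 1 library left out, the 1220 ran from 554 without control replicate 4 to 1503 without mutant replicate 1.

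The other genes of these cells were read from lists. Among 6 further endocrine products, edgeR called 3 lower and 0 higher at 8 days, against 0.0572% lower and 0.0343% higher of all genes. DESeq2 called 5, of which Tph1 was higher. The 3 called by edgeR were Cck, the hormone of gallbladder contraction (-3.28, SE 0.27, edgeR adjusted p 0.00342), Ghrl, the ghrelin gene (0 to 2 counts in the libraries labelled mutant, a ratio of 41.6 over pooled counts with a 95% exact interval of 17.5 to 130.1, adjusted p 0.00342), and Sst, somatostatin (-1.61, SE 0.15, adjusted p 0.00670). Without the 2 Car1-rich libraries Cck kept its call (adjusted p 0.0373), and Ghrl (0.0748) and Sst (-1.46, 0.141) did not pass. Without the Gata4-poor pair Sst did not pass (-1.47, 0.0845). At 3 months 4 were called lower and 1 higher, against 4.32% lower and 4.96% higher of all genes. Ghrl had 1 count in each library labelled mutant (ratio 61.6, interval 23.7 to 228.1, adjusted p 0.000285), Cck changed by -1.46 (0.00464) and Sct, secretin, by -0.97 (0.0165), while Tph1, the enzyme of serotonin synthesis, changed by 1.87 (0.00408). Without control replicate 1 the call of Sct was lost (adjusted p 0.0510). Sst was the other gene called lower, kept in 3 of 8 fits that left out 1 library. The median log2 fold change over the 6 was -1.21 at 8 days and -1.14 at 3 months. Ghrl shares exon sequence with Gm26982 and Gm44033 on the opposite strand, so its counts are uncertain. Cck at 3 months had 98 to 125 counts in the controls and 28 to 67 in the libraries labelled mutant.

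Genes of the machinery that cuts and packs prohormones were also read from a list. Of 11 processing and granule genes, 0 were called at 8 days by edgeR, DESeq2 or limma-voom. In edgeR 3 had an unadjusted p under 0.05 at that time. At 3 months 2 were called higher and 0 lower. Of all genes, edgeR called 0.0915% at 8 days, and 4.96% higher and 4.32% lower at 3 months. With shares this small, 0 of 11 called lower is not a result about this machinery. The median log2 fold change over the 11 was -0.04 at 8 days and 0.15 at 3 months. The 2 called were the granins Chga (1.58, SE 0.09, edgeR adjusted p 8.8e-05) and Chgb (1.78, SE 0.15, adjusted p 0.000798), which serotonin cells also make. Pcsk1, the convertase that cuts proglucagon to GLP-1, had log2 values of -0.35 at 8 days (SE 0.12, adjusted p 0.473) and 0.15 at 3 months (SE 0.13, adjusted p 0.469), which did not pass. Its 3-month counts were 580 to 873 in the controls and 671 to 1316 in the libraries labelled mutant. The 5 enterochromaffin markers, Tph1, Chga and Chgb among them, summed to 101.2 to 150.3 CPM in the 3-month controls and 335.4 to 425.5 CPM in the libraries labelled mutant. Neither Dpp4, the peptidase that inactivates GLP-1 and GIP, nor Mme, another peptidase, was called at either time, by edgeR, DESeq2 or limma-voom, and 0 of the 2 had an unadjusted p under 0.05 (Dpp4 -0.25, SE 0.15, at 3 months).

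Some transcription factors of the endocrine lineage were called, lower at 8 days and in either direction at 3 months. At 8 days 2 of 15 tested were lower, against 0.0572% of all genes, Isl1 (35, 51 and 71 counts against 2, 2, 0 and 2, a ratio of 35.6 with a 95% exact interval of 16.0 to 98.5, edgeR adjusted p 0.00342) and Pax6 (-1.87, SE 0.22, adjusted p 0.0207, kept in 2 of 7 fits that left out 1 library), both known as activators of proglucagon and GIP transcription. Without the 2 Car1-rich libraries, with 2 controls against 3, neither passed, at -5.28 for Isl1 (edgeR adjusted p 0.112) and -2.09 for Pax6 (0.131). Without the Gata4-poor pair Pax6 did not pass (SE 0.30, adjusted p 0.147). At 3 months edgeR and limma-voom each called 5 of 14 and DESeq2 8 of 16, against 9.28% of all genes in edgeR. The lower ones were 2, Isl1 (-3.37, SE 0.31, adjusted p 0.00138) and Pax6 (-2.24, SE 0.28, adjusted p 0.00606). At the same time 3 were higher, Rfx6 itself (0.72, adjusted p 0.0347, with its 2 of 8 fits given above), Pax4 (1.94, SE 0.35, adjusted p 0.0168) and Nkx2-2 (1.15, SE 0.26, adjusted p 0.0326). The call of Nkx2-2 was kept in 2 of 8 fits that left out 1 library, and that of Pax4 in 7, the exception being without control replicate 3 (adjusted p 0.0555). Nkx2-2 overlaps a gene on the opposite strand. The median over the factors tested was -0.04 at 8 days and 0.32 at 3 months.

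Of 11 nutrient sensors, 9 could be tested at 8 days, with 1 called lower, against 0.0572% of all genes. For 3 months 6 could be tested, with 2 called lower, against 4.32% of all genes. The median log2 fold change was -0.39 at 8 days and 0.09 at 3 months. Abcc8, the sulfonylurea receptor of the ATP-sensitive potassium channel, changed by -1.20 (SE 0.13, edgeR adjusted p 0.0115) and -0.80 (SE 0.17, adjusted p 0.0256), calls kept in 2 of 7 and 5 of 8 fits that left out 1 library. At 8 days it did not pass without the Car1-rich pair (-1.19, adjusted p 0.264) or without the Gata4-poor pair (-1.21, 0.157). Ffar1, a receptor for long-chain fatty acids, changed by -2.41 (SE 0.62, adjusted p 0.0442) at 3 months, kept in 1 of 8 such fits. Its 8-day counts were 14, 20 and 40 in controls and 2, 34, 72 and 26 in libraries labelled mutant. Gpr119, a lipid receptor of L and K cells, was named after its values were seen. It had 8, 17 and 15 counts against 0, 1, 1 and 1 at 8 days, a ratio of 18.1 (95% exact interval 5.78 to 91.7, counting error only), and did not pass the edgeR test (-3.98, SE 0.60, adjusted p 0.0884). At 3 months it had 15, 7, 3 and 17 counts against 0 in all 4.

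Receptors for these hormones were not called at 8 days, and 2 were at 3 months. Of 9 tested at 8 days, 0 were called by edgeR, DESeq2 or limma-voom and 0 had an unadjusted p under 0.05 in edgeR, and of 8 at 3 months 1 was higher and 1 lower, with medians of -0.07 and 0.39. At 3 months limma-voom called 2 of the 8 and DESeq2 4 of 12, against 9.28% of all genes called by edgeR. Glp1r, the GLP-1 receptor, changed by -1.57 (SE 0.37, edgeR adjusted p 0.0366) and Glp2r, the GLP-2 receptor, by 0.83 (SE 0.15, adjusted p 0.0159). The call of Glp1r was kept in 2 of 8 fits that left out 1 library and that of Glp2r in 7, the exception being without control replicate 1 (adjusted p 0.0533). Glp2r overlaps a gene on the opposite strand. Of the 12 genes of the precursor families of these peptides 4 could be tested. At 8 days 0 were called by edgeR or limma-voom and 1 by DESeq2, with 1 at an unadjusted p under 0.05 in edgeR. At 3 months 2 were lower, Sct and the relaxin-family gene Insl6 (-0.64, SE 0.12, edgeR adjusted p 0.0166, and 0.0551 without control replicate 3). Ppy, the pancreatic polypeptide gene of the same family as Pyy, was named after its values were seen and had 2, 7, 0 and 11 counts in the 3-month controls and 0 in all 4 libraries labelled mutant. Over all genes tested the median log2 fold change was -0.0020 at 8 days and 0.0077 at 3 months. With the Rfx6f/f controls only, edgeR kept the 3-month calls of Ghrl, Tph1, Chga, Chgb and Isl1, and the other list genes called and named here did not pass (adjusted p from 0.0511 for Pax6 to 0.249 for Glp1r).

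**Figure D5:**
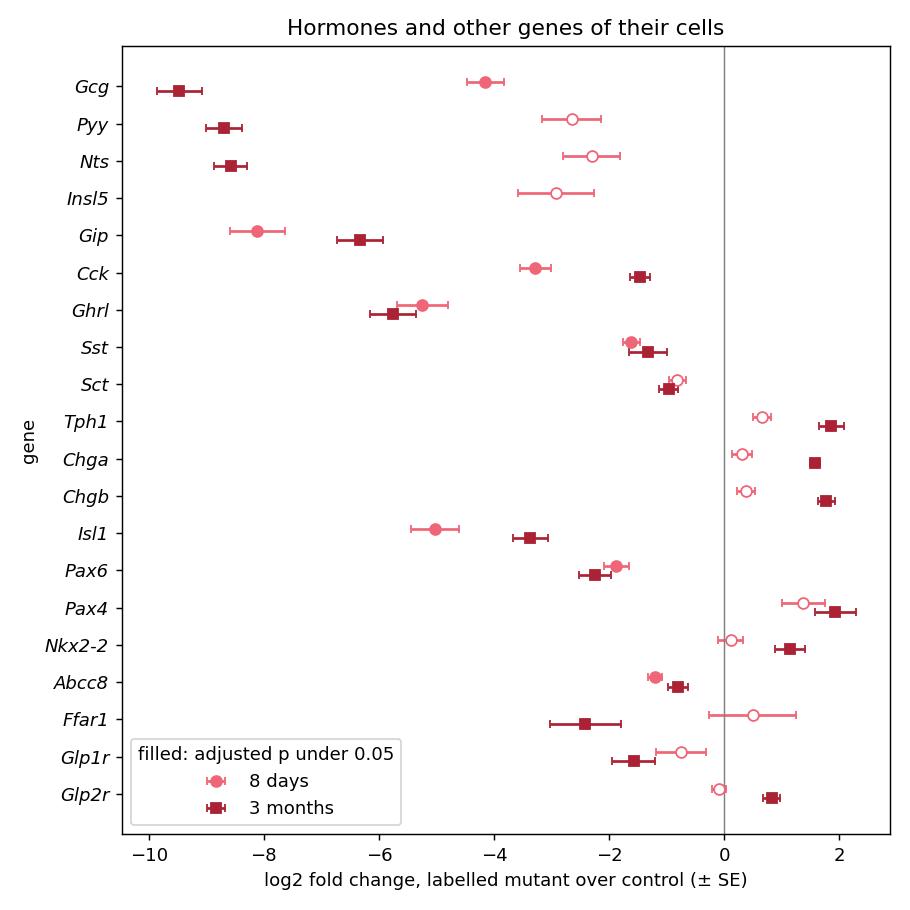
Log2 fold change of libraries labelled mutant over controls (x axis, ± SE from edgeR) for the 5 hormones and for other genes of their cells, at 8 days (circles) and 3 months (squares). Filled symbols passed an adjusted p of 0.05. The L-cell genes lie further left at 3 months, Isl1 and Pax6 lie left at both times, and Tph1, Chga and Chgb lie right at 3 months. Insl5 was below the count filter at 3 months and is not drawn there.

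Of the regional marker lists at 3 months, edgeR called 2 of 4 distal, 1 of 4 proximal and 0 of 2 colon genes tested, against 9.28% of all genes. DESeq2 called 2, 2 and 0, and limma-voom 2, 1 and 0. The ileal bile acid genes Fabp6, a cytosolic binding protein (-1.44, SE 0.20, edgeR adjusted p 0.00873), and Slc51b, a subunit of the basolateral bile acid exporter (-0.70, SE 0.09, adjusted p 0.00613), were lower. The other distal genes, Slc10a2 (-0.55, adjusted p 0.188) and Slc51a (-0.37, adjusted p 0.134), did not pass. The 4 distal markers summed to 3192 to 3863 CPM in the controls and 1259 to 2090 in the libraries labelled mutant, and the 4 proximal markers to 66.0 to 93.8 and 112.9 to 143.2 CPM. Colon markers summed to 14.7 to 21.1 and 13.9 to 38.3 CPM, and enteric neuron markers to 55.3 to 59.3 and 53.1 to 79.8. The part of these shifts in the hormone values was not tested.

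Genes whose log2 CPM followed a hormone most closely over the 15 libraries were ranked among 13427 genes, with the members left out. Predicted genes, immunoglobulin and T-cell receptor segments and genes with a low mean level were also left out. Gcg, Pyy and Nts followed each other more closely (Pearson 0.982 for Gcg with Pyy, 0.968 for Gcg with Nts, 0.989 for Nts with Pyy). Over the 7 controls alone these values were 0.646, 0.988 and 0.680. For Gcg the nearest of the ranked genes were Spout1 (Pearson 0.939) and the fucosyltransferase gene Fut4 (0.939), then Slc51b (0.916), Cdc42se2 (0.894) and Ifit3b (0.887). For Pyy they were Spout1 (0.951), Fut4 (0.936), Cdc42se2 (0.915), Slc51b (0.912) and Kyat1 (0.888), and for Nts Spout1 (0.947), Slc51b (0.938), Cdc42se2 (0.921), Fut4 (0.906) and Ifit3b (0.902). Gip had other neighbours, Ces1e (0.934), Abcc8 (0.930), Gfra3 (0.927), Tigar (0.906) and Krt8 (0.893). The 15 points share the 4 groups, which lie far apart in these genes. Over the 7 controls alone, 0 of the 5 nearest genes were the same for each of the 4 hormones.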

How the data were processed

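Each cohort had 1 deposited table of raw counts by Ensembl gene. The authors used bcl2fastq 2.17.1.14, TopHat2 2.0.10, Bowtie 1.0.0, Bowtie2 2.1.0, HTSeq 0.6.1 and build mm9, per the submitters' processing notes. The annotation release and strand setting are not given in the sources used here. The labels' protocols give total RNA after rRNA depletion and 2 extraction methods, unassigned to samples, and the molecule label gives polyA RNA. Symbols, exon lengths and promoters came from GENCODE M21 and RefSeq on GRCm38, and 32897 identifiers matched. Identifiers with no symbol held 0.675% of counts.

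Pooled ratios divide a group's summed counts by its summed TMM-scaled size, with exact binomial intervals. Counts were tested with edgeR 4.0.16 (quasi-likelihood F test, filterByExpr minimum 10, TMM, Benjamini-Hochberg over all genes, R 4.3.3, two-sided). Replicate numbers follow deposit order and pair nothing. The labels do not say whether libraries share cages or litters, so p-values measure the spread between these libraries. The lowest chi-square per degree of freedom within a group was 12.1, and no library was a copy. On simulated counts with 200 genes changed by a log2 of 2, edgeR recovered 93.8% at 8 days, 94.6% at 3 months, 90.3% for the interaction and 95.3% between cohorts. False calls made up 5.91, 5.85, 5.52 and 3.73% of its calls, in that order. The changed genes were drawn from those above a minimum mean count. Each gene was drawn independently in each library, so regional differences shared by genes were absent. These shares therefore do not give the power for the members at 8 days.

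Named genes were the 5 hormones, Rfx6, up to 4 called genes of each list and the 5 nearest genes of each hormone outside the members. Gpr119, Ppy and genes named beside a result as a check fell outside that rule and were named after their values were seen. The members and lists were chosen with earlier results of these data known. Alternatives were DESeq2 1.42.0, limma-voom (3.58.1), other scalings and filters, a robust fit, a joint fit, Rfx6f/f controls only, each library left out, and 3 left-out pairs added after the data were seen.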

Additional observations from a re-analysis of the deposited data

Results flagged for a closer look

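Among 18 group checks for 1 library lying apart, 2 were met, where about 0.9 would be met by chance (1 in 20). Insl5 at 3 months had 1 count, 0.0356 CPM, in mutant replicate 4, and the other 3 libraries labelled mutant had 0. Rfx6 in mutant replicate 1 of that cohort reached 3.40 CPM, whereas the other 3 lay at 2.31 to 2.38. By the edgeR interaction test the log2 fold change at 3 months minus that at 8 days was -5.34 for Gcg, -6.08 for Pyy and -6.30 for Nts.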

How the results depend on the processing

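No paired analysis was possible because the labels give no replicate numbers and tie no control to a mutant. At 8 days 2 members passed in the edgeR fit. There were 4 with DESeq2, with the joint fit of all 15 libraries or without the 2 Gata4-poor libraries, and 1 without the 2 Car1-rich libraries, where Gcg was -4.24 (adjusted p 0.0748). With at least 10 counts in every sample 1 passed, Gcg, as that filter removed Gip and Insl5, which were then not tested. Pyy passed at -2.65 (adjusted p 0.0105, DESeq2), -2.64 (0.0203, joint fit) and -4.02 (0.000986, without Gata4-poor libraries), and Nts at -2.30 (0.0375), -2.29 (0.0476) and -3.53 (0.00656). Over all alternatives the adjusted p ran from 0.000986 to 0.654 for Pyy and from 0.00656 to 0.854 for Nts. For the difference between times, limma-voom gave 1 member, with Pyy at -5.69 and Nts at -5.94 (adjusted p 0.0574 for each), and with Rfx6f/f controls only Pyy was -6.19 (adjusted p 0.0666). The Gata4-poor libraries hold the most Pyy and Nts of their group, which fixes the direction of that move. The cause of the other moves was not tested. Counts over all genes moved by over 1.5 times, from 16 to between 8 and 200 at 8 days, 1586 to between 391 and 1521 at 3 months and 141 to between 10 and 749 for the interaction with 1 library left out. Pyy between control cohorts turned to 0.066 with Rfx6f/f controls only and ran from -0.15 to 0.060, turning without 8-day control replicate 3 or 3-month control replicate 2, with each library left out, and Gip between control genotypes ran from -0.91 to 0.25, turning without 3-month control replicate 3. Insl5 at 3 months ran from -0.287 to -0.130 CPM with a library left out, each at the smallest exact p of 3 against 4, 0.0571. The counts of members called were the same with each library left out, and the 4 calls at 3 months were kept in all 17 alternatives that tested them, with Insl5 called as well with no filter and in the joint fit. The same filter removed the members from the fits of 3 months and of both cohorts. Counts of 0 to 8 limit every fold at 3 months.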
